A study of Homo sapiens with 6 samples.

Results

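The genes described here encode the ADAM, ADAMTS and MMP metalloproteinases, the ADAMTS-like proteins and the TIMP inhibitors in HK-2 cells, an established, immortalised human line derived from the renal proximal tubule. They were chosen by name, as all protein-coding genes in the table whose symbol is ADAM, ADAMTS, ADAMTSL, MMP or TIMP with a number. This gave 57 of 29483 genes, with 15 ADAM, 17 ADAMTS, 5 ADAMTSL, 16 MMP and 4 TIMP genes. The cells of both groups (3 replicates each) were first grown in high glucose (HG) medium at 25 mM for 7 days. After these 7 days the case group was given 10 μM TEPP-46, an activator of the pyruvate kinase isoform PKM2, for 1 day, and the control group was not. No group at a lower glucose level enters the comparison, all cells are of 1 line, and a vehicle for the control group is not given in the sources used here. The study describes the replicates as independent and separately treated.

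Expression is given as FPKM, the fragments of a gene per kilobase of its length and scaled to the reads of the library. From the values, the reads counted per library came to 18634891 (control replicate 1), 17924033 (control replicate 2) and 17378710 (control replicate 3), and to 16711934 (case replicate 1), 16047243 (case replicate 2) and 15363254 (case replicate 3). Every case library thus had fewer counted reads than every control library. These are reads counted in genes, not reads sequenced. In the study's own table, case replicates 2 and 3 had more clean reads than control replicate 3. Their share of mapped reads in exons was lower, and that in introns higher, than in any control replicate. The case replicates also varied more than the controls, with a median SD between replicates of 0.19 against 0.09 on the log2 scale over all tested genes. On the main axis of variation (37.2% of the variance) the control replicates lay at -22.9, -27.8 and -23.7, case replicates 1 and 3 at 30.4 and 34.4, and case replicate 2 at 9.5. Case replicate 2 was therefore the case library nearest to the control group.

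Matrix metalloproteinases (MMPs) are zinc enzymes that cut proteins of the extracellular matrix, either as secreted proteins or anchored to the cell membrane. ADAM proteins are membrane-anchored relatives, of which the catalytic members act as sheddases that release growth factors, cytokines and adhesion proteins from the cell surface. ADAMTS proteins are secreted and bind and cut matrix proteins such as proteoglycans and procollagens, while the ADAMTS-like proteins lack the protease domain. The tissue inhibitors of metalloproteinases (TIMPs) block the active site of these enzymes. In the kidney, the balance of proteases and TIMPs is known for its part in matrix turnover and tubulointerstitial fibrosis.

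Proteases of these families carry a zinc-binding signature, in which histidines hold the metal and a glutamate takes part in catalysis. The form searched here also has a glycine, which not every catalytic member needs to have. Its codons were searched in frame in the coding sequence of each gene (Ensembl canonical transcript, GENCODE v44, GRCh38). They were found in 16 of 16 MMP, 10 of 15 ADAM, 12 of 17 ADAMTS, 0 of 5 ADAMTSL and 0 of 4 TIMP genes, with no match in the proteoglycan-cutting *ADAMTS1*, *ADAMTS4*, *ADAMTS8*, *ADAMTS9* and *ADAMTS15*, and in 0.302% of the 16239 coding sequences of the table. The sites of the 3 proteases that changed in the case group are shown first, followed by those of the most abundant MMP and of *ADAM15*, with the codons of the signature's histidines, glutamate and glycine in capitals.
MMP1: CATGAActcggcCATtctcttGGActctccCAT
MMP24: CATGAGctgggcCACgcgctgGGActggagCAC
ADAM19: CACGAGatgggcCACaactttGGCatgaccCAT
MMP14: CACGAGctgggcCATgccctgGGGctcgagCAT
ADAM15: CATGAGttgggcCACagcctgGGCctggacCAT
They lie in exon 5 of 10 of *MMP1* (chr11:102795549-102795581, minus strand), exon 5 of 9 of *MMP24* (chr20:35263817-35263849, plus strand) and exon 11 of 23 of *ADAM19* (chr5:157505734-157505766, minus strand). The other 2 are in exon 5 of *MMP14* (chr14:22843283-22843315, plus strand) and exon 11 of *ADAM15* (chr1:155056995-155057027, plus strand). Of the 33 bases, *MMP1* and *MMP24* shared 22, and *ADAM19* shared 20 with each of them. Of the 13 tested genes with the signature 3 passed the threshold described next, and of the 9 tested genes without it 1 did, where 13.2% of all tested genes passed, so neither count is a result about the signature.

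For the comparison of case with control, FPKM values were divided by 1 scaling factor per library, and 22 of the 57 genes had the mean FPKM of at least 0.5 that was required for testing. DE genes were those with an adjusted p of at most 0.05 by limma over the 13599 tested genes of the table. Among the 22 genes there were 4 DE genes (18.2%), against 13.2% of all tested genes. *MMP1* and *TIMP1* were upregulated, where 7.77% of all tested genes were, and *ADAM19* and *MMP24* were downregulated, where 5.45% were. With so few genes a share of 4 in 22 is near the background, and the description rests on the named genes rather than on the share. An unadjusted p under 0.05 was found for 8 of the 22 genes (36.4%), near the 32.9% of all tested genes. The median log2 fold change was -0.21, with 13 genes below and 9 above 0, beside a median of 0.01 over all tested genes. The scaled values of the groups did not overlap for 12 of the 22 genes (54.5%, against 39.7% of all tested genes). Of these, 4 were higher in the case group (20.6% of all tested genes were) and 8 were lower (19.2% of all tested genes were). The split of directions over the table depended on the scaling. Over all genes 1056 were upregulated and 741 downregulated, but these were 662 and 1124 with the FPKM as deposited, and 383 and 2387 when each library was rescaled to the same sum (TPM), which moved the median of all genes to -0.19.

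**Figure D1:**
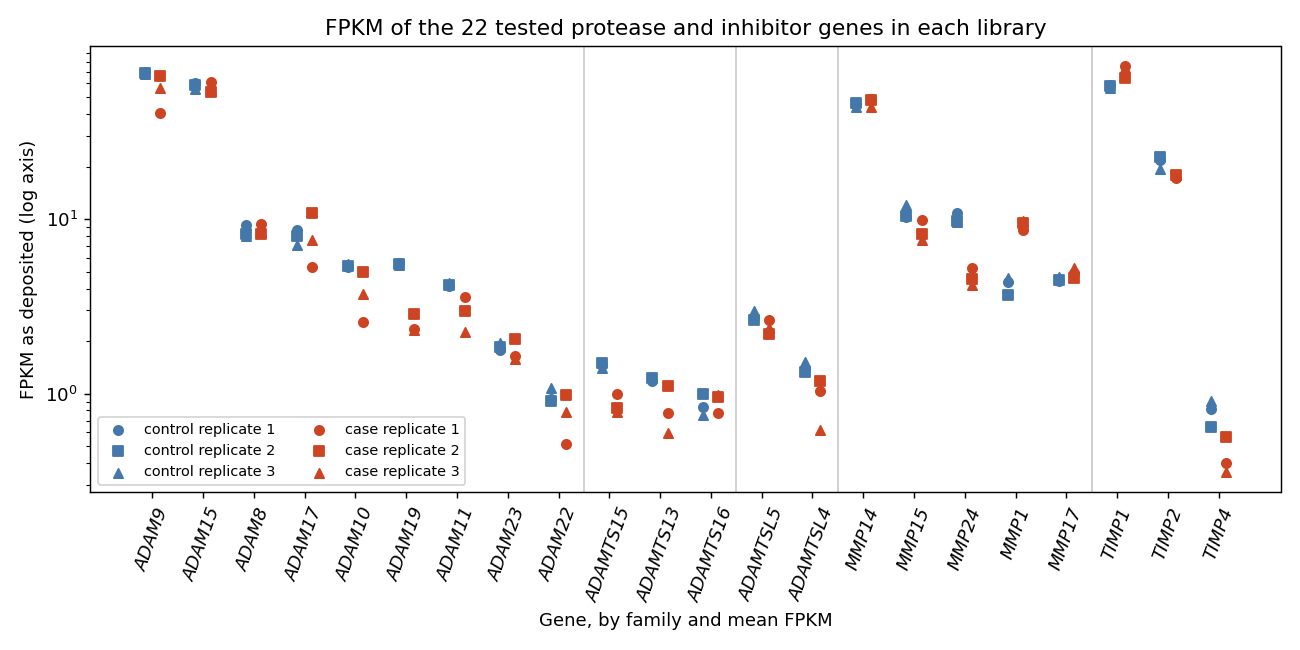
FPKM as deposited (log axis) of the 22 tested genes, grouped by family and ordered by mean, with 1 symbol per library (blue for the control group, red for the case group, shapes for the replicate number). *MMP1* and *TIMP1* stand higher in every case library, *ADAM19* and *MMP24* lower, and *ADAM9*, *ADAM10* and *ADAM17* spread widely over the case libraries.

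*MMP1* (ENSG00000196611, chromosome 11 from 102789401 to 102798160), the interstitial collagenase that cuts fibrillar collagen, had the largest change among the tested genes of these families. Its FPKM was 4.36, 3.68 and 4.59 in replicates 1, 2 and 3 under HG alone and 8.69, 9.49 and 9.71 in those with TEPP-46. All case libraries were well above all control libraries, and the case libraries were close to each other. The log2 fold change of 1.22 had a standard error of 0.10 and an adjusted p of 0.00202 (limma), a 2.33-fold increase. It rested on 130 to 160 reads per control library and 286 to 300 reads per case library. The other genes of the MMP cluster on chromosome 11 in the table were close to silent, with a mean FPKM of 0.128 for *MMP13* (a second collagenase), 0.0396 for *MMP10* and 0.0238 for *MMP3* (stromelysins), and 0.0077 for *MMP7* (matrilysin), and none of them was tested.

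*MMP24* (ENSG00000125966, chromosome 20 from 35226690 to 35276998), a membrane-type MMP also known as MT5-MMP, changed in the opposite direction. Its FPKM was 10.8, 9.78 and 9.56 under HG alone and 5.21, 4.53 and 4.17 with TEPP-46. Every case library was far below the lowest control library. The log2 fold change of -1.01 had a standard error of 0.12 and an adjusted p of 0.00684 (limma). The gene overlaps *MMP24OS* on the opposite strand, whose FPKM was 12.4, 11.6 and 20.5 under HG alone and 20.4, 10.5 and 11.3 with TEPP-46 (log2 fold change 0.00). The strand setting of the counting is not given in the sources used here, so reads from the shared part of the genes cannot be told apart.

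The other membrane-type MMPs did not pass the threshold. *MMP14* (MT1-MMP), which activates the MMP2 proenzyme and cuts collagen at the cell surface, was the most abundant MMP by FPKM. Its FPKM was 45.7, 46.4 and 43.8 under HG alone and 48.9, 47.9 and 43.9 with TEPP-46. These ranges overlapped as deposited, while the scaled values of the case group were all above those of the control group, and the log2 fold change of 0.14 had a standard error of 0.08 and an adjusted p of 0.282 (limma). *MMP15* (MT2-MMP) had 10.3, 10.4 and 12 under HG alone and 9.86, 8.25 and 7.62 with TEPP-46. All case libraries were below the controls as deposited, but the scaled values overlapped, and the log2 fold change was -0.26 (adjusted p = 0.21 by limma). It passed the threshold without case replicate 1 (-0.39, adjusted p = 0.0341 by limma) and with TPM (-0.47, adjusted p = 0.03 by limma). The change was smaller without case replicate 3 (-0.17, adjusted p = 0.468 by limma) and without control replicate 3 (-0.19, adjusted p = 0.471 by limma). *MMP17*, a GPI-anchored MMP, had a mean FPKM of 4.51 and 4.91 in the control and case group (log2 fold change 0.21, adjusted p = 0.18 by limma), and it passed without case replicate 2 (0.28, adjusted p = 0.0486 by limma).

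The inhibitor *TIMP1* (ENSG00000102265, chromosome X from 47582408 to 47586789), a secreted TIMP that is commonly induced in injured and fibrotic kidney, was the most abundant TIMP. Its FPKM was 58.4, 58.3 and 56.1 under HG alone and 75.2, 64.0 and 73.4 with TEPP-46. Every case library was above every control library, with case replicate 2 the lowest of them. The log2 fold change of 0.39 had a standard error of 0.10 and an adjusted p of 0.0431 (limma), a 1.31-fold increase. This call was less firm than those of the 3 proteases that changed. It was lost without control replicate 1, 2 or 3 (log2 fold change 0.40, 0.39 and 0.36, adjusted p = 0.134, 0.148 and 0.149, in fits that called 116, 68 and 80 genes of the whole table), without case replicate 1 (0.0505) or case replicate 3 (0.133), all by limma, and kept when case replicate 2 was left out (0.00815). It was also lost, with a smaller log2 fold change, under TPM (0.17, adjusted p = 0.116), quantile normalization (0.21, adjusted p = 0.0737) and the exon length correction (0.21, adjusted p = 0.092), all by limma. By contrast, *MMP1*, *ADAM19* and *MMP24* were DE genes in all 21 alternatives tried, with log2 fold changes of 1.01 to 1.28, -1.23 to -0.82 and -1.23 to -0.89.

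The other TIMP genes stood at lower values. *TIMP2*, which inhibits MMPs and also takes part in the activation of MMP2 by MMP14, had an FPKM of 21.8, 22.6 and 19.3 under HG alone and 17.3, 17.9 and 18.0 with TEPP-46. As deposited every case library was below every control library, while the scaled values overlapped, and the log2 fold change of -0.16 had a standard error of 0.09 and an adjusted p of 0.223 (limma). With TPM it was -0.38 and passed the threshold (adjusted p = 0.0261 by limma). *TIMP4* had 0.813, 0.642 and 0.907 under HG alone and 0.399, 0.567 and 0.355 with TEPP-46. The case values were the lower ones, but they rested on 9 to 26 reads per library, and the log2 fold change of -0.65 had a standard error of 0.28 (adjusted p = 0.147 by limma). *TIMP4* lies within *SYN2* on the opposite strand, which had a log2 fold change of -0.54 (adjusted p = 0.184 by limma). *TIMP3*, the matrix-bound TIMP that also inhibits sheddases, was close to silent at a mean FPKM of 0.0122.

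The summed scaled FPKM of the TIMP genes was 78.9, 78.9 and 73.7 under HG alone and 100, 81.9 and 94.2 with TEPP-46, a ratio of 1.19. *TIMP1* made up 72.3% ± 1.0 of this sum under HG alone and 79.5% ± 1.74 with TEPP-46 (SD, n = 3 each). The secreted MMP genes summed to 5.28, 4.34 and 5.40 under HG alone and 10.1, 9.80 and 10.6 with TEPP-46, so that they were higher in every case library (ratio 2.03), most of it *MMP1*. The sum over all MMP genes barely moved, at 73.6 ± 0.89 and 77.4 ± 6.17 (SD, n = 3 each). Its ratio was 1.05 after scaling and 0.985 as deposited, so its direction depends on the scaling. Within this sum the share of *MMP1* was 5.53% ± 0.603 under HG alone and 12.4% ± 1.27 with TEPP-46, and that of *MMP24* was 13.2% ± 0.795 and 6.18% ± 0.42 (SD, n = 3 each). The ratio of the TIMP sum to the MMP sum was 1.06, 1.08 and 1.01 under HG alone and 1.19, 1.10 and 1.29 with TEPP-46. Scaling by 1 factor per library cannot alter it, but quantile normalization and the exon length and GC corrections were not applied to it. The ADAM, ADAMTS and ADAMTSL sums had case to control ratios of 0.916, 0.815 and 0.846. These sums are descriptions with no test, since the genes were chosen with earlier results of these data known.

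**Figure D2:**
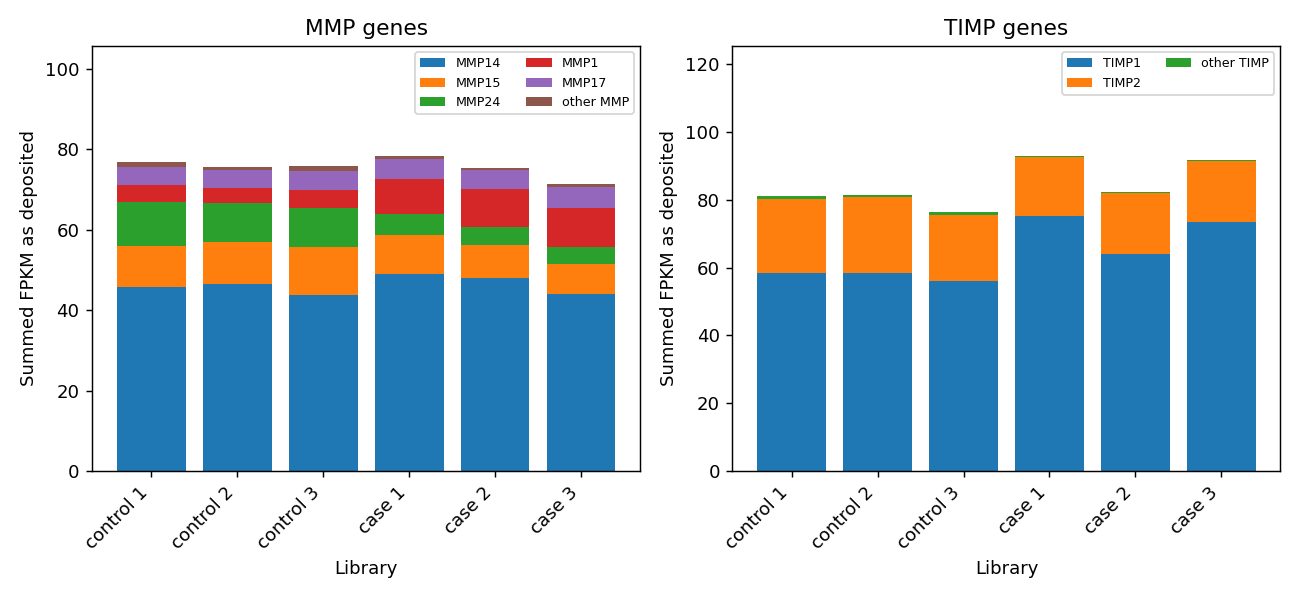
Summed FPKM as deposited of the MMP genes (left) and TIMP genes (right) in each library, with the parts of a bar showing the genes. The *MMP1* part is larger and the *MMP24* part smaller in every case library while the bars stay of similar height, and the *TIMP1* part is larger in the case libraries.

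Among the ADAM genes, *ADAM19* (ENSG00000135074, chromosome 5 from 157395534 to 157575775), a sheddase also called meltrin beta that can release neuregulin, was the only 1 of 9 tested that passed the threshold by limma. Its FPKM was 5.57, 5.51 and 5.46 in replicates 1, 2 and 3 under HG alone and 2.34, 2.87 and 2.32 in those with TEPP-46. The control libraries were almost equal, and all case libraries were far below them. The log2 fold change of -1.02 had a standard error of 0.10 and an adjusted p of 0.00372 (limma), with 731 to 799 reads per control library and 274 to 355 per case library. *CYFIP2* and *NIPAL4*, which overlap it on the opposite strand, had an FPKM under 1 in every library, and *CYFIP2* had a log2 fold change of -0.58 (adjusted p = 0.179 by limma).

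The most abundant ADAM genes did not pass the threshold. *ADAM9*, a widely expressed sheddase, had an FPKM of 69.8, 68.9 and 67.6 under HG alone and 40.3, 66.3 and 56.2 with TEPP-46. The control libraries were tight, while case replicate 1 was low and case replicate 2 was at the level of the controls. Its log2 fold change of -0.28 had a standard error of 0.14 and an adjusted p of 0.208 (limma). It was -0.11 without case replicate 1 and -0.41 (adjusted p = 0.0489 by limma) without case replicate 2. *ADAM15*, a sheddase with a disintegrin domain that binds integrins, had 60.6, 58.8 and 55.8 under HG alone and 61.0, 53.8 and 55.0 with TEPP-46, which overlapped (log2 fold change 0.05, adjusted p = 0.776 by limma). *ADAM9* overlaps *TM2D2* on the opposite strand, which was upregulated by 0.44 on the log2 scale (adjusted p = 0.0215 by limma, and 0.072 to 0.103 without case replicate 3 or any control replicate), and reads from the part they share cannot be told apart. *ADAM8*, best known from leukocytes, had a mean of 8.47 and 8.69 in the control and case group, and its log2 fold change was 0.13 (adjusted p = 0.454 by limma).

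The principal sheddases *ADAM10* (Notch receptors and cadherins among its substrates) and *ADAM17* (TNF and EGF receptor ligands) did not behave evenly across the case libraries. *ADAM10* had an FPKM of 5.33, 5.38 and 5.51 under HG alone and 2.56, 5.00 and 3.72 with TEPP-46. All case libraries were below the controls, but by very different amounts, and the log2 fold change of -0.47 had a standard error of 0.19 and an adjusted p of 0.125 (limma). Without case replicate 2 it was -0.67 (adjusted p = 0.0195 by limma), and without case replicate 1 it was -0.26 (adjusted p = 0.176 by limma). With each library corrected for exon length it was -0.13 (adjusted p = 0.504 by limma). By voom on the recovered reads it was -0.48 (adjusted p = 0.0433), so that it was called in 2 of the 21 alternatives. *ADAM17* had 8.62, 7.97 and 7.10 under HG alone and 5.33, 10.8 and 7.57 with TEPP-46. Its lowest and its highest value were both case libraries, and the log2 fold change of 0.04 had a standard error of 0.20 and an adjusted p of 0.917 (limma), which was -0.19 without case replicate 2. It overlaps *IAH1* on the opposite strand, which was upregulated by 0.35 on the log2 scale (adjusted p = 0.0442 by limma, and 0.12 to 0.16 without case replicate 3 or any control replicate). The 3 tested ADAM genes without the zinc signature, which act in cell adhesion and at synapses, did not pass. They were *ADAM11* (4.23 and 2.94 in the control and case group, log2 fold change -0.45, adjusted p = 0.115 by limma), *ADAM23* (1.86 and 1.76, log2 fold change 0.00) and *ADAM22* (0.968 and 0.758, log2 fold change -0.27). *ADAM11* was called, also lower in the case group, with TPM and without case replicate 1.

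**Figure D3:**
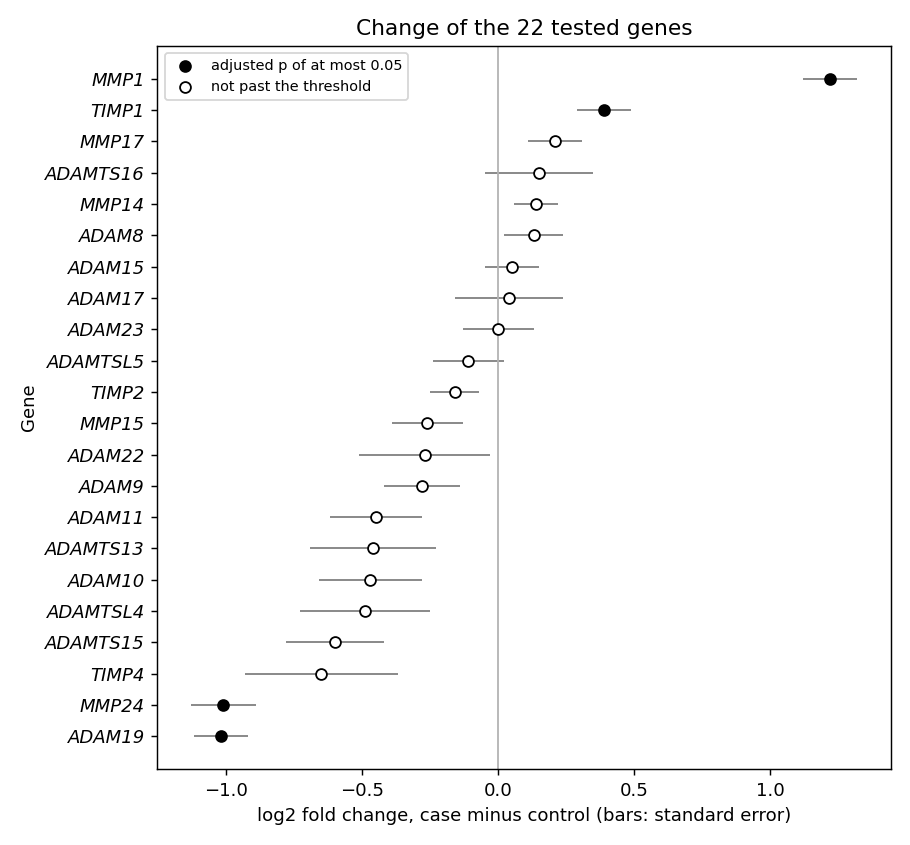
Log2 fold change of case minus control for the 22 tested genes, with bars for the standard error, filled where the adjusted p by limma was at most 0.05. *MMP1* at 1.22 and *ADAM19* and *MMP24* at -1.02 and -1.01 lie apart from the others, and *TIMP1* at 0.39 is the remaining filled point.

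Several ADAM genes whose transcripts had a low GC content differed between the case replicates. *ADAM11*, at a GC content of 62.5%, also differed. Its scaled log2 values minus the control mean were -0.09, -0.45 and -0.8 in case replicates 1, 2 and 3. *ADAM10*, *ADAM9*, *ADAM22* and *ADAM17* had the lowest GC content of the 22 tested genes (37.5%, 38.7%, 40.4% and 42.1%), and they were higher in case replicate 2 than in the mean of case replicates 1 and 3 by 0.59, 0.40, 0.48 and 0.67 on the log2 scale. In all, 5 of 6 tested genes with a GC content under 45% were higher in case replicate 2, with *MMP1* the exception at -0.04, and 5 of 16 genes of at least 45% were. Among the latter were *ADAMTS13* and *ADAMTSL4*, which had a high GC content (64.1% and 62.7%) and were higher by 0.57 and 0.43. Across the 22 genes the correlation of this difference with GC content was -0.61, and across 13489 tested genes of the table it was -0.26. These correlations are across genes of the same 3 libraries and are a description only. Over all tested genes the median of this difference was 0.18 for a GC content up to 40% and -0.21 above 60%. With each library corrected for GC content, *ADAM10* had a log2 fold change of -0.38 (adjusted p = 0.0652 by limma). In that fit 7 of the 22 genes were called, where 24.6% of all tested genes were, with *ADAM11*, *ADAMTS15* and *MMP15* (all lower in the case group) beside the 4 DE genes. With the replicate block added to this correction the 3 were not called and the 4 DE genes were.

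**Figure D4:**
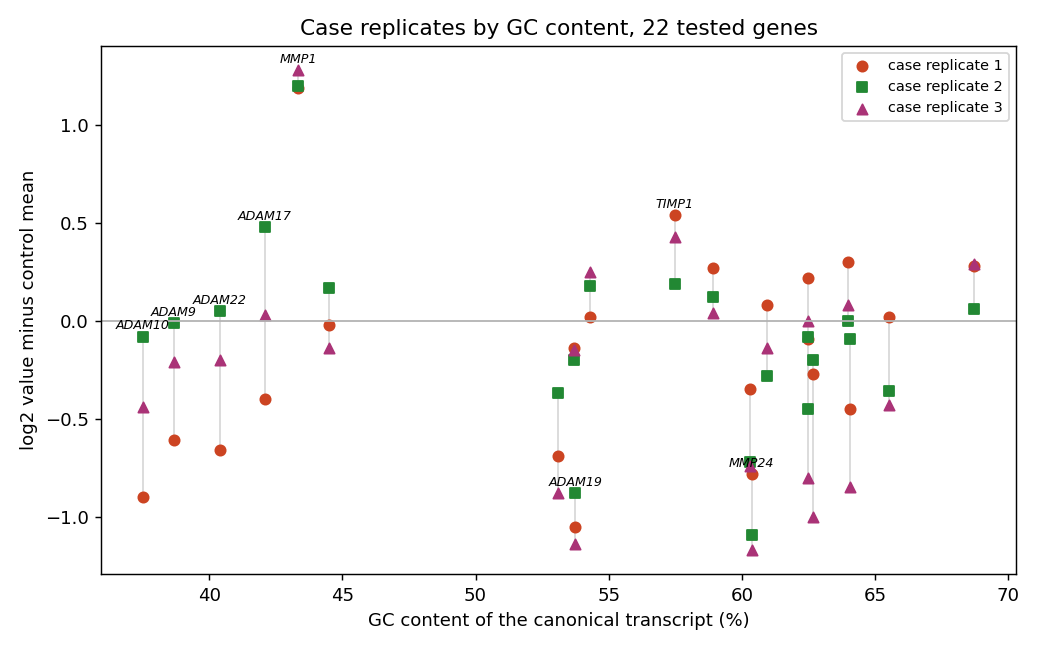
Scaled log2 value of each case replicate minus the control mean (vertical axis) against the GC content of the canonical transcript (horizontal axis) for the 22 tested genes, with a line joining the 3 case replicates of a gene. At the left, *ADAM10*, *ADAM9*, *ADAM22* and *ADAM17* spread widely with case replicate 2 on top. *ADAM11*, *ADAMTSL4* and *ADAMTS13*, further to the right, also spread widely. All case replicates of *MMP1*, *ADAM19* and *MMP24* lie away from 0.

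Of the 17 ADAMTS genes 3 were tested, and none passed the threshold by limma, with an unadjusted p under 0.05 for 1 of them, which voom on the recovered reads called. That was *ADAMTS15*, a proteoglycan-cutting member, whose FPKM was 1.46, 1.49 and 1.41 under HG alone and 1.00, 0.824 and 0.780 with TEPP-46. All case libraries were below all control libraries. The log2 fold change of -0.60 had a standard error of 0.18 and an adjusted p of 0.0579 (limma), and it passed the threshold in 6 of the 21 alternatives. *ADAMTS13*, which cuts von Willebrand factor, had means of 1.22 and 0.827 in the control and case group (log2 fold change -0.46, adjusted p = 0.193 by limma), and *ADAMTS16* had 0.859 and 0.903 (log2 fold change 0.15, adjusted p = 0.64 by limma). The ADAMTS-like genes *ADAMTSL4* and *ADAMTSL5*, whose products associate with the matrix, had log2 fold changes of -0.49 and -0.11 (adjusted p = 0.186 and 0.575 by limma).

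The remaining 35 genes were too low to be tested, and 3 of them (*ADAM2*, *ADAM28* and *ADAMTSL1*) were listed at 0 in every library. The other 32 had a mean FPKM of up to 0.403, and 14 of the 35 were ADAMTS genes. The untested genes included all 3 stromelysins, all 3 procollagen N-propeptidases of the ADAMTS family and both gelatinases. Of the gelatinases, *MMP2* was close to silent at a mean FPKM of 0.00188, and *MMP9* had 0.0625. A mean FPKM of 0.1 or more was found for *MMP11*, *ADAM12*, *ADAMTS7*, *ADAM21*, *ADAMTSL3*, *ADAMTS6* and *MMP13*. *MMP11*, a stromelysin that is activated by furin within the cell, had 0.746, 0.485 and 0.534 under HG alone and 0.266, 0.0722 and 0.314 with TEPP-46. The groups were apart, but the values rested on 6 to 72 reads. *ADAM12*, a sheddase of EGF receptor ligands, had 0.490, 0.504 and 0.373 under HG alone and 0.322, 0.367 and 0.323 with TEPP-46, and its scaled values overlapped. When the filter on low values was dropped, none of the 32 passed the threshold by limma, and 1 (*MMP11*, log2 fold change -1.12, adjusted p = 0.232) had an unadjusted p under 0.05.

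The promoters of 3 of the 4 DE genes were found in the RefSeq table of promoters (GRCh38.p14), and that of *MMP1* was not. The 250 bases before each RefSeq start, which for *TIMP1* lies inside the gene as GENCODE draws it, are printed to show what these regions hold, with matches to the GC box (GGGCGG on either strand) in capitals.
ADAM19: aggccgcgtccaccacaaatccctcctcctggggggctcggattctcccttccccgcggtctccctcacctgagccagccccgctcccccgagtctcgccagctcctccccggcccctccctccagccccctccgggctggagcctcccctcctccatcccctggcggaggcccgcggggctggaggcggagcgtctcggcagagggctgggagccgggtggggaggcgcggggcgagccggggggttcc
MMP24: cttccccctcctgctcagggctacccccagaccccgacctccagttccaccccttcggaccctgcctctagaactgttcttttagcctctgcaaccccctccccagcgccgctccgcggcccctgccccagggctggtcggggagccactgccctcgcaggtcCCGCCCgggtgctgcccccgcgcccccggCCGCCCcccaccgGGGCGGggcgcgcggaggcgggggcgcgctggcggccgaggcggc
TIMP1: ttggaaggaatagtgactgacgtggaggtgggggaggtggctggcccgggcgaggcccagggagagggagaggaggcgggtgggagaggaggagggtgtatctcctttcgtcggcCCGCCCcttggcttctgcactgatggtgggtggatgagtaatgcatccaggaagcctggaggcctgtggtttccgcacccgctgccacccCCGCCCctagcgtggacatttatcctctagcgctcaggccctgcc
They lie at chr5:157575776-157576025 (minus strand), chr20:35226440-35226689 (plus strand) and chrX:47582186-47582435 (plus strand). The *ADAM19* promoter held none of the 4 motifs searched, the *MMP24* promoter held 3 GC boxes (87 to 82, 58 to 53 and 45 to 40 bases before the start) and the *TIMP1* promoter held 2 (135 to 130 and 45 to 40 bases before the start). Promoters were matched for 15 of the 22 tested genes, of which 14 (93.3%) held a GC box, against 69.5% of the 9766 promoters of tested genes and 42.3% of all 27305 promoters of the table. The AP-1 motif TGANTCA, the TATA box TATAAA and the core of the antioxidant response element TGACNNNGC, which can share bases with TGANTCA, were each in 0 of the 15. They were in 3.65%, 4.96% and 12.2% of the promoters of tested genes, and in 6.6%, 11.1% and 11% of all promoters. The motifs were searched on both strands and were picked after the DE genes were known, and a match is a match of letters only.

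Proteins that activate, inhibit, transport or meet these enzymes, or that inhibit other proteases, were described by 6 lists. The lists were written with earlier results of these data known, so their counts are descriptions. Over the lists 56 genes were tested and 20 were DE genes (10 up and 10 down). Of all tested genes 13.2% were, with 7.77% up and 5.45% down, and these shares stand beside the count of each list below. All 20 kept their direction in every alternative in which they were fitted, but not their call. Without the filter on low values 6 were called (1.88% of all tested genes were), and with the exon length correction and the replicate block 11 (6.6%). There were 14 each with TPM (20.4%), the exon length correction (10.9%) and no intensity trend (6.47%). The size of the change also moved. Among the upregulated genes, the log2 fold change nearest to 0 over the alternatives was 0.10 for *CTSB*, 0.14 for *TSPAN5* and 0.15 for *TFPI2*. It was 0.18 for *PLAUR*, 0.23 for *PLAU*, 0.24 for *SERPINE2* and 0.26 for *HBEGF*. Among the downregulated genes it was, for example, -0.32 for *NOTCH2*, -0.33 for *LRP1* and -0.43 for *FN1*. None of the 20 passed the threshold by limma without control replicate 1, 2 or 3, although all 20 had an unadjusted p under 0.05 in each of these fits, and 5 (*AREG*, *HSPG2*, *ICAM1*, *NECTIN1* and *SDC4*) passed without case replicate 3. Without case replicate 1 all 20 passed, and without case replicate 2 19 did.

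Of 3 tested protease inhibitors outside the TIMP family 2 were upregulated, both known mainly as inhibitors of serine proteases. They were *SERPINE2* (protease nexin) and *TFPI2*, a Kunitz-type inhibitor, with log2 fold changes of 0.45 and 0.37 (adjusted p = 0.0236 and 0.0469 by limma). The membrane-anchored metalloproteinase inhibitor *RECK* was not called (-0.06, adjusted p = 0.801 by limma), and the list's median was 0.37. *TFPI2* was called in 8 of the 21 alternatives. Of 8 tested genes of activating proteases and the plasminogen system 3 were upregulated and none was downregulated, with a median of -0.12. The most abundant was *PLAU*, the urokinase that starts plasmin-driven activation of pro-MMPs, with an FPKM of 193 in each control library and 259, 237 and 258 in the case libraries. All case libraries were higher, and the log2 fold change was 0.47 (adjusted p = 0.0181 by limma). Its receptor *PLAUR* had 0.39 and the lysosomal protease *CTSB* 0.32 (adjusted p = 0.0321 and 0.0343 by limma). The proprotein convertases *FURIN*, *PCSK6* and *PCSK7* did not pass the threshold (log2 fold changes -0.24, -0.59 and -0.33, adjusted p = 0.126, 0.122 and 0.115 by limma). The membrane serine protease *ST14* (-0.34, adjusted p = 0.0953 by limma) and the plasminogen activator *PLAT* (-0.01) did not pass either. For all of these but *PLAT*, the scaled values of every case library were below those of the control group. Of the 8 tested genes of this list 4 were lower in this way and 3 higher, against 19.2% and 20.6% of all tested genes.

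Of 11 tested partners of the sheddases 1 was upregulated and 1 downregulated (median -0.13). *TSPAN5*, a tetraspanin that escorts ADAM10, rose by 0.35, and *SH3PXD2B*, an adaptor of invadopodia, fell by 0.50 on the log2 scale (adjusted p = 0.034 and 0.0412 by limma). The most abundant was *TSPAN15*, also a partner of ADAM10, with means of 28.4 and 27.0 and a log2 fold change of 0.02 (adjusted p = 0.919 by limma). Of 7 tested genes for induction, binding and uptake of MMPs 2 were downregulated (median -0.09). *LRP1*, the endocytic receptor that clears MMPs and protease-inhibitor complexes, had 7.39, 7.24 and 6.98 under HG alone and 4.05, 4.98 and 3.19 with TEPP-46. The groups were apart, with a log2 fold change of -0.74 (adjusted p = 0.0215 by limma). *THBS1* (thrombospondin 1) fell by 0.56 on the log2 scale (adjusted p = 0.0223 by limma). *BSG* (basigin, an inducer of MMPs) was the most abundant of this list at 364 and 438, and its log2 fold change of 0.35 did not pass (adjusted p = 0.0994 by limma).

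Of 20 tested sheddase substrates 4 were upregulated and 5 downregulated (median -0.06). The EGF receptor ligand *AREG* (amphiregulin), the most abundant of them, had an FPKM of 104, 103 and 99.9 under HG alone and 139, 154 and 180 with TEPP-46. All case libraries were higher, with a log2 fold change of 0.71 (adjusted p = 0.01 by limma). *SDC4* (syndecan 4), *ICAM1* and the EGF receptor ligand *HBEGF* rose by 0.58, 0.53 and 0.47 (adjusted p = 0.011, 0.0175 and 0.0251 by limma). The receptors *NOTCH3* and *NOTCH2*, the epithelial cadherin *CDH1*, the adhesion protein *NECTIN1* and the receptor *IL6R* had log2 fold changes of -0.98, -0.67, -0.63, -0.59 and -0.49 (adjusted p = 0.024, 0.0259, 0.0157, 0.00895 and 0.0238 by limma). The other 11 tested substrates, among them the EGF receptor ligands *TGFA*, *EREG* and *BTC* (log2 fold changes -0.11, 0.11 and -0.13), did not pass.

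Of 7 tested matrix substrates none was upregulated and 2 were downregulated (median -0.30). *HSPG2* (perlecan, a proteoglycan of basement membranes) had 4.79, 4.95 and 4.53 under HG alone and 1.72, 2.39 and 1.14 with TEPP-46, and *FN1* (fibronectin) had 1.08, 1.34 and 1.21 against 0.529, 0.691 and 0.549. The groups did not overlap for either gene, and the log2 fold changes were -1.36 and -0.85 (adjusted p = 0.0142 and 0.0334 by limma). *TNC* (tenascin C), a matrix glycoprotein, had the highest mean FPKM of these 7 genes, with 19.2 under HG alone and 14.7 with TEPP-46, and its log2 fold change of -0.30 did not pass (adjusted p = 0.0949 by limma).

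**Figure D5:**
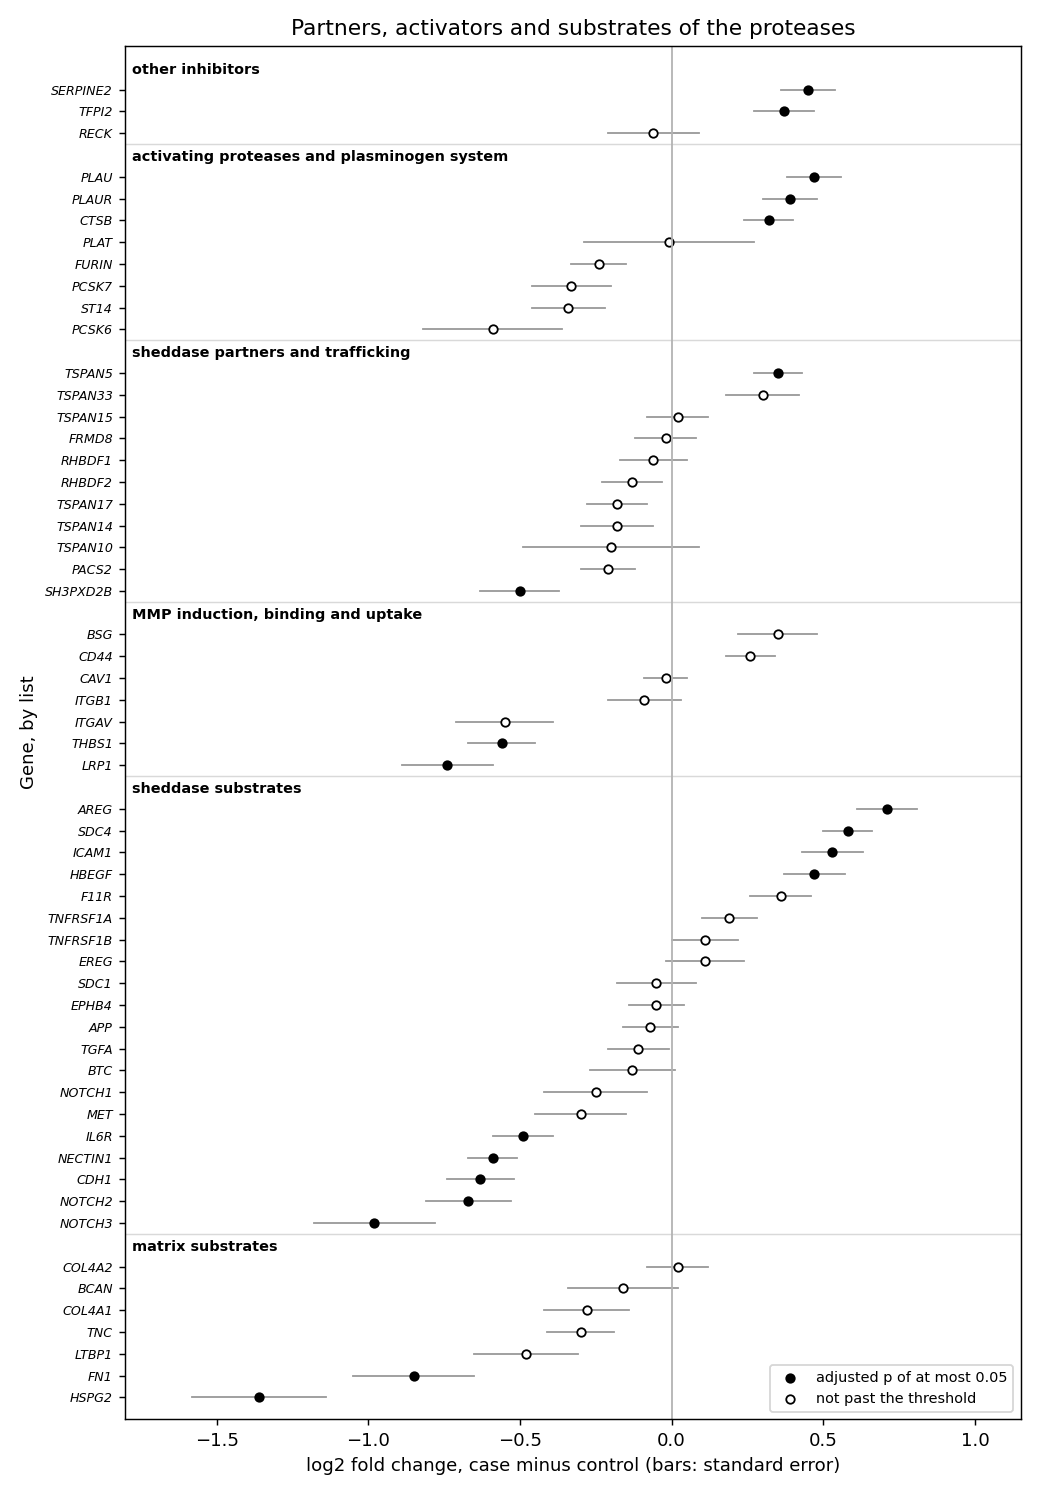
Log2 fold change of case minus control for the 56 tested genes of the 6 lists of partners, activators, inhibitors and substrates, with bars for the standard error and filled points for an adjusted p of at most 0.05 by limma. The filled points lie to the right for the inhibitors (*SERPINE2* and *TFPI2*, mainly of serine proteases) and the activating proteases. They lie to the left for the matrix substrates and on both sides for the sheddase substrates.

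The labelled cell type was checked by its markers. The keratins *KRT19*, *KRT8* and *KRT18* were high in all libraries, with *KRT19* at 352 ± 6.5 under HG alone and 340 ± 42.4 with TEPP-46 (SD, n = 3 each), and *EPCAM* was at 12.7 to 14.6. The epithelial and proximal tubule list of 16 genes, of which 14 were in the table and 5 were tested, summed to 925, 900 and 897 FPKM under HG alone and 902, 720 and 821 with TEPP-46, with *CDH1* the only DE gene. The 9 untested genes of this list, among them the transporters and endocytic receptors of the proximal tubule (*LRP2*, *CUBN*), had a mean FPKM of at most 0.354, so the cells were epithelial by keratins while the defining proximal tubule genes were at or near 0. Fibroblast and pericyte markers (3 of 6 in the table) summed to at most 0.232 FPKM and endothelial markers (4 of 4) to at most 0.0886 in any library. Immune markers (3 of 5) summed to 0.927, 0.632 and 0.926 under HG alone and 0.286, 0.267 and 0.344 with TEPP-46. Nearly all of this was *CD14* (log2 fold change -1.23, adjusted p = 0.0399 by limma, and 0.0914 and 0.113 without case replicate 3 and control replicate 2), with *CD68* and *CSF1R* near 0. In bulk RNA, fewer cells of a kind and less RNA per cell cannot be told apart.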

How the data were processed

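RNA of 6 HK-2 libraries (3 control, 3 case) was measured by paired-end sequencing. The authors filtered the reads, aligned them to GRCh38.p13 with HISAT2 2.1.0, counted them per gene with HTSeq 0.6.0 and deposited FPKM values. RNA selection, strandedness and annotation version are not given in the sources used here. The table held no counts. Whole reads were recovered from the FPKM steps, from which the counted reads per library follow. Of 27922 genes above 0, 12598 gave whole reads with the GENCODE exon length and 15324 with another length found by search (tolerance 0.01 reads), so for the latter wholeness is no independent check. Without molecular identifiers, reads may be copies of 1 molecule.

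Each library was scaled by its median-of-ratios factor (0.926 to 1.037), 0.1 was added to the scaled FPKM, and log2 values were tested in R 4.3.3 with limma 3.58.1 (intensity trend, no covariates, Benjamini-Hochberg) over genes whose mean FPKM reached 0.5. Fold changes are on this log2(FPKM + 0.1) scale, which understates changes of low genes. The procedure was tested on simulated data. The simulation gave both groups the same dispersion and no GC or exon length effect, so it does not cover the wider spread of the case replicates. The alternatives were other pseudocounts, filters, scalings and limma settings, the replicate block, exon length and GC corrections, voom on the recovered reads, and leaving out each library.

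The genes and lists were chosen with earlier results of these data known. Named were the DE genes, the 10 most abundant genes and all TIMP genes of the families, untested genes whose mean FPKM reached 0.1, list genes called with a log2 fold change of 0.5 or more in size, and the most abundant gene of each list. Other named genes were picked after their values were seen. A gene of the lists is not reported here, and counts leave it out. A planned search of protein sequences was replaced by the search of codons. Symbols and positions are from GENCODE v44 (29063 of 29483 genes matched).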

Additional observations from a re-analysis of the deposited data

How the results depend on the processing

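*MMP1*, *ADAM19* and *MMP24* were DE genes in all 21 alternatives (highest adjusted p by limma 0.0233, 0.0326 and 0.0426), and *TIMP1* in 10 of 21 (log2 fold change 0.17 to 0.49, adjusted p 0.00815 to 0.149). The number of DE genes over the table (1797, with 1056 up and 741 down) was 524 (347 up, 177 down) without a filter on low values, 880 (480 up, 400 down) without the intensity trend, 897 (525 up, 372 down) with the replicate block and exon length correction, 2770 (383 up, 2387 down) with TPM, 2826 (1413 down) by voom, and, for alternatives chosen after seeing the data, 3350 (1824 up, 1526 down) with the GC correction and 2698 (1226 down) with the replicate block and GC correction. With FPKM as deposited 662 were up and 1124 down. When each library was left out in turn, the number was 68 to 3538, with 54 to 1971 up and 14 to 1567 down. The lowest was without control replicate 2 and the highest without case replicate 2, and there were 116, 80, 2274 and 184 without control replicate 1, control replicate 3, case replicate 1 and case replicate 3. Among the 22 tested genes of the families, 3 to 7 were then called, 1 to 3 up and 2 to 5 down. There were 7 (6 down, 1 up) with TPM, 7 (5 down) with the GC correction and 4 down by voom. Only *MMP1* was up without a filter, with TPM, quantile normalization, no intensity trend, and the exon length correction with or without the block (1 gene each). Of the 22 genes 7 turned in direction under some alternative, never past the threshold. Among the 14 followed through each alternative (those named by the rule, and *ADAM10* and *ADAMTS15*, picked after their values were seen) these were *ADAM17* (-0.05 as deposited, -0.18 with TPM, -0.04 without control replicate 3, and -0.19 to 0.26 over all libraries left out in turn, the lowest without case replicate 2), *ADAM15* (-0.05 as deposited, -0.17 with TPM, -0.12 with quantile normalization, and -0.04 to 0.11 over all libraries left out in turn, the lowest without case replicate 1), *MMP14* (-0.07 with TPM) and *ADAM8* (-0.09 with TPM), and the others were *ADAM23*, *ADAMTS16* and *MMP17*. The cause was not tested. The replicate numbers did not pair the samples (correlations of deviations 0.06, 0.10 and -0.05 for numbers 1, 2 and 3). With the replicate block there were 1698 DE genes, and the same 4 genes of the families were called. The class sums moved by less than the spread between replicates under all 7 of their alternatives (FPKM as deposited, and leaving out each library). The untested genes were set by the filter on mean FPKM, not by reads, and *MMP11* and *TIMP4* rest on as few as 6 and 9 reads in a library.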
